A study of Mus musculus with 126 samples.

Results

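The Dlk1-Dio3 domain is an imprinted stretch of mouse chromosome 12 that holds 3 coding genes read from the paternal chromosome and a long series of noncoding genes read from the maternal chromosome. Its members were taken here as all genes of a deposited RNA-seq count table whose first listed exon lies on chromosome 12 and whose smallest start falls between 109450000 and 110285000 on the mm10 build. This gave 73 of the 23420 genes in the table. They are the coding genes Dlk1, Rtl1 and Dio3, the long noncoding genes Meg3, Rian and Mirg, 57 microRNA genes, 7 small nucleolar RNA (snoRNA) genes and 3 other noncoding genes, 6430411K18Rik, 3110009F21Rik and Dio3os. The study, of 126 samples, asked how DNA methylation and histone acetylation affect where transcription factors bind in mouse embryonic stem cells, and its 8 RNA-seq libraries are used here. Wild type J1 cells, and cells of the J1 strain with the genotype Dnmt1-/-, Dnmt3a-/-, Dnmt3b-/- (TKO, without the 3 enzymes that write and maintain DNA methylation), were each treated for 36 h with 5 ng/µl Trichostatin A (TSA), an inhibitor of histone deacetylases, or with 0.0033% DMSO as control. That makes 4 groups of 2 libraries, described by the submitters as biological replicates. Serum and leukaemia inhibitory factor were in the medium of all 4 groups, on gelatin-coated dishes. Whether the TKO cells are 1 clone, and whether replicates were separate cultures, is not given in the sources used here, so p-values measure the spread between these libraries. The counts do not separate the parental alleles, so "maternal" and "paternal" below name the known origin of a gene and not a measured one.

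In an imprinted domain, a differentially methylated control region decides which parental copy of each gene is active. At Dlk1-Dio3 this control region lies upstream of Meg3: it is methylated on the paternal chromosome, where Dlk1, Rtl1 and Dio3 are expressed, and unmethylated on the maternal chromosome, where Meg3, Rian, Mirg and the small RNAs between and within them are expressed, largely as one long run of transcription in the same direction. The domain is well known in mouse stem cells because silencing of its maternal noncoding genes marks induced pluripotent lines of low developmental potential.

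The promoters of Meg3, Dlk1 and Dio3 are shown because the noncoding and the coding genes are set against each other below. Each line gives the 250 bases before the gene's start, 5′ to 3′ on the plus strand, from RefSeq on GRCm38.p6. Capitals mark matches, on either strand, to a short set of promoter motifs.
Meg3 promoter, chr12:109540746-109540995: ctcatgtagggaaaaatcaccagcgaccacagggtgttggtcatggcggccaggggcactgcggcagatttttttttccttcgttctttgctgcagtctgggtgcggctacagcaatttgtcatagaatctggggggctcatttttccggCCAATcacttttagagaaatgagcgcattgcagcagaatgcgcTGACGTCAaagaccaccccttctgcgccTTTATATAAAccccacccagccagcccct
Dlk1 promoter, chr12:109452573-109452822: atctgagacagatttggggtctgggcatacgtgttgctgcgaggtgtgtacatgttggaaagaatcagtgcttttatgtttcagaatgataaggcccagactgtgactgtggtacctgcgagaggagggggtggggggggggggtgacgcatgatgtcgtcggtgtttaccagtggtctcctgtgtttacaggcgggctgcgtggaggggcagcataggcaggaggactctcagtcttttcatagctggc
Dio3 promoter, chr12:110278980-110279229: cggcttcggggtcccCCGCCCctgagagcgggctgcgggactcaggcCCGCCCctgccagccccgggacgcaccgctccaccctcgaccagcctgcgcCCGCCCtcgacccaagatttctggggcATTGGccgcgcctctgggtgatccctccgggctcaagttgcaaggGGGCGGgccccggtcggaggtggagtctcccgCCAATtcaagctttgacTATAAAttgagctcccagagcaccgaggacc
The Meg3 window holds a cyclic AMP response element, TGACGTCA, that begins 57 bases before the start, along with 2 overlapping TATAAA matches and 1 CCAAT box. Over the 300-base windows, which reach 50 bases past the start, TGACGTCA occurs in 1.79% of 32851 mouse promoters, TATAAA in 13.616% and CCAAT in 37.408%. The Dio3 window is rich in CpG, with 25 CpG pairs against a median of 7 over all promoters, and holds 4 matches to GGGCGG, the GC box read by SP1, which occurs in 35.658% of promoters. It also holds 1 TATAAA and 2 CCAAT matches. The Meg3 window has 13 CpG pairs and the Dlk1 window 9. None of the letters searched is in the Dlk1 window. The other motifs searched, which had no match in the windows of these 3 genes, were CACGTG (in 7.15% of promoters), the NRF1 motif (0.971%), CCGGAAG (8.858%) and GCCATNTT (6.052%). A match describes letters only and shows no binding.

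All 57 microRNA genes matched RefSeq, which lists 107 mature sequences with 98 seeds for them. The seed, bases 2 to 8, is the stretch with which a microRNA pairs with its targets. Only 9 seeds are shared by more than 1 gene, over 14 genes. The lines show 4 of those groups, then the mature forms of 3 genes whose counts are described below, with the seed in capitals.
mmu-miR-453: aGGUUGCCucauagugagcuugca
mmu-miR-496a-5p: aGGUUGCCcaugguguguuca
mmu-miR-3070-5p: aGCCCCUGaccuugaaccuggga
mmu-miR-379-5p: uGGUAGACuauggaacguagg
mmu-miR-1193-5p: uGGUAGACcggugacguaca
mmu-miR-379-3p: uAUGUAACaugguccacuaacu
mmu-miR-411-3p: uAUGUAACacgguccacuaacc
mmu-miR-134-5p: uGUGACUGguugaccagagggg
mmu-miR-432: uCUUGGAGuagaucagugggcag
mmu-miR-409-3p: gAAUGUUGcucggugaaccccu
Mir453 and Mir496 share 1 seed, Mir379 and Mir1193 another, and Mir379 and Mir411 share the seed of their 3p arms. Mir3070a and Mir3070b give 1 and the same 5p sequence. Of these genes Mir379 had 13 counts in all 8 libraries together and was not tested.

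The microRNA counts are not levels of mature microRNAs. The libraries were made from ribosome-depleted total RNA and read with 51-base reads, while the mature sequences are 19 to 26 bases long, so counts at these genes come from longer RNA that runs through them. Counts depended on overlap in the way the table was made: of 331 genes lying wholly inside exons of another gene on the same strand, 326 had 0 counts in all 8 libraries (98.49%), against 21.82% of the 614 genes of up to 150 bases that share no exon base with another gene. Of the 24 genes that lie wholly inside exons on the opposite strand only, 37.5% had 0 counts. Among the members, Mir770 (inside an exon of Meg3), Mir433 (inside 6430411K18Rik), Mir3071 (inside Rtl1) and Mir410 (inside Mirg) were at 0, as was 3110009F21Rik. Of the 73 members, 48 passed the filter on low counts and were tested. The other 25 were those 5, Rtl1, Dio3os and 18 more microRNA genes with 1 to 64 counts over all libraries: Mir673, Mir337, Mir127, Mir370, Mir882, Mir379, Mir380, Mir543, Mir495, Mir376b, Mir376a, Mir381, Mir539, Mir154, Mir412, Mir369, Mir3072 and Mir1247.

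Libraries held 13280631 to 15542527 counts, and 3 counts, the limit that a count of 0 allows, are worth 0.183 to 0.243 normalised CPM, that is, counts scaled to a common library total. Such limits cover counting error only. The targeted genes fitted the labels: Dnmt1, Dnmt3a and Dnmt3b were lower in every TKO library than in every wild type library, with means of 130, 26.4 and 44.9 normalised CPM in TKO DMSO against 446, 211 and 592 in wild type DMSO. Stem cell markers were expressed in all groups, Pou5f1 for example at 303 to 949 normalised CPM. Over the 10 stem cell markers the summed level ran from 3505 to 3976 in wild type with DMSO, 1941 to 2179 in wild type with TSA, 4430 to 4855 in TKO with DMSO and 1927 to 2255 in TKO with TSA, so it moved with the maternal noncoding genes described next. TSA moved much of the transcriptome: edgeR called 52.8% of 15822 tested genes in wild type, 27% higher and 25.9% lower, and 58.7% in TKO, 30.8% higher and 27.9% lower. Of the 10 stem cell markers it called 8 lower with TSA in each genotype, and 5 higher in TKO DMSO than in wild type DMSO, where 9.63% of all genes were called higher. The 4 trophoblast markers (Cdx2, Elf5, Tfap2c, Hand1) summed to 37.3 to 54.1 in the DMSO libraries and 161 to 245 in the TSA libraries. The 10 fibroblast markers, led by Tagln, summed to 236 to 503 in wild type and 22.2 to 58.3 in TKO. Of the 9 tested, edgeR called 5 lower and 0 higher in TKO DMSO, where 10.7% of all genes were called lower. Thy1, Pdgfrb, Lum and Postn were not called there. In TKO with TSA against wild type DMSO, 4 were called higher and 4 lower, against 31.7% and 30.2% of all genes. The 5 neuronal markers, led by Tubb3, also moved with the maternal noncoding genes, at sums of 185 to 191 in wild type with DMSO, 114 to 127 in wild type with TSA, 212 to 223 in TKO with DMSO and 89.8 to 95.1 in TKO with TSA. Of the 5, Dcx was at 0 in 1 library and at most at 0.474 in the others. The 5 endoderm markers summed to 5.35 to 6.48, 8.06 to 11.2, 16.0 to 18.3 and 27.4 to 31.3 in the same order of groups, and edgeR called 3 of them higher in TKO DMSO. The 4 mesoderm markers had mean sums of 18.9, 10.3, 4.24 and 14.6. The part of these differences in the results on the domain was not tested. In bulk RNA, fewer cells of a type and less RNA per cell cannot be told apart.

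In wild type cells with DMSO, Rian had the highest level of the 5 long genes compared. Per kb of exon length, which allows genes to be compared, the mean level in wild type DMSO was 142 normalised CPM per kb for Rian, 38.2 for Mirg, 9.17 for Meg3, 1.32 for Dio3 and 0.807 for Dlk1. In TKO DMSO the means of the same genes were 217, 63.9, 13.4, 1.75 and 1.95. The order of Dlk1 and Dio3 there differed between the libraries, with Dlk1 above Dio3 only in library 2. With TSA, the mean of Dio3 was above that of Meg3 in both genotypes, at 5.86 against 3.95 in wild type and 11.7 against 4.22 in TKO. Per kb, Dio3 was above Meg3 in both TKO TSA libraries. In wild type TSA library 1 these genes were level, so the wild type order rests on library 2.

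TSA lowered the 3 maternal long noncoding RNAs in both genotypes. Meg3, the noncoding RNA that lies downstream of the control region, was at 130 and 107 normalised CPM in wild type cells with DMSO and at 57.8 and 44.2 with TSA. In TKO it was at 182 and 164 with DMSO and at 62.9 and 45.9 with TSA. Both TSA groups lay below both DMSO groups, without overlap. The log2 fold change with TSA was -1.22 ± 0.17 (SE) in wild type (edgeR adjusted p = 0.000187) and -1.67 ± 0.17 in TKO (edgeR adjusted p = 1.6e-05).

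Rian, the host of the domain's snoRNAs, was at 521 and 499 normalised CPM in wild type cells with DMSO and at 234 and 185 with TSA. In TKO it was at 823 and 728 with DMSO and at 267 and 199 with TSA. The TSA libraries of the genotypes overlapped each other and stood below every DMSO library. With TSA the log2 fold change was -1.28 ± 0.15 in wild type (edgeR adjusted p = 6.44e-05) and -1.74 ± 0.15 in TKO (edgeR adjusted p = 6.25e-06).

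Mirg, which contains the last cluster of microRNAs, was at 58.9 and 40.4 normalised CPM in wild type with DMSO, at 29.8 and 17.9 in wild type with TSA, at 91.7 and 74.2 in TKO with DMSO and at 44.8 and 27.7 in TKO with TSA. Within each genotype the treatments did not overlap, but the higher TKO TSA library was above the lower wild type DMSO library. The log2 fold change with TSA was -1.06 ± 0.27 in wild type (edgeR adjusted p = 0.00733) and -1.20 ± 0.26 in TKO (edgeR adjusted p = 0.00245). In wild type the call was lost without DMSO library 1 or TSA library 2, with log2 fold changes of -0.76 and -0.74 and a highest adjusted p of 0.0678. The calls for Meg3 and Rian held in both genotypes in each of the 8 fits that leave out 1 library.

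**Figure D1:**
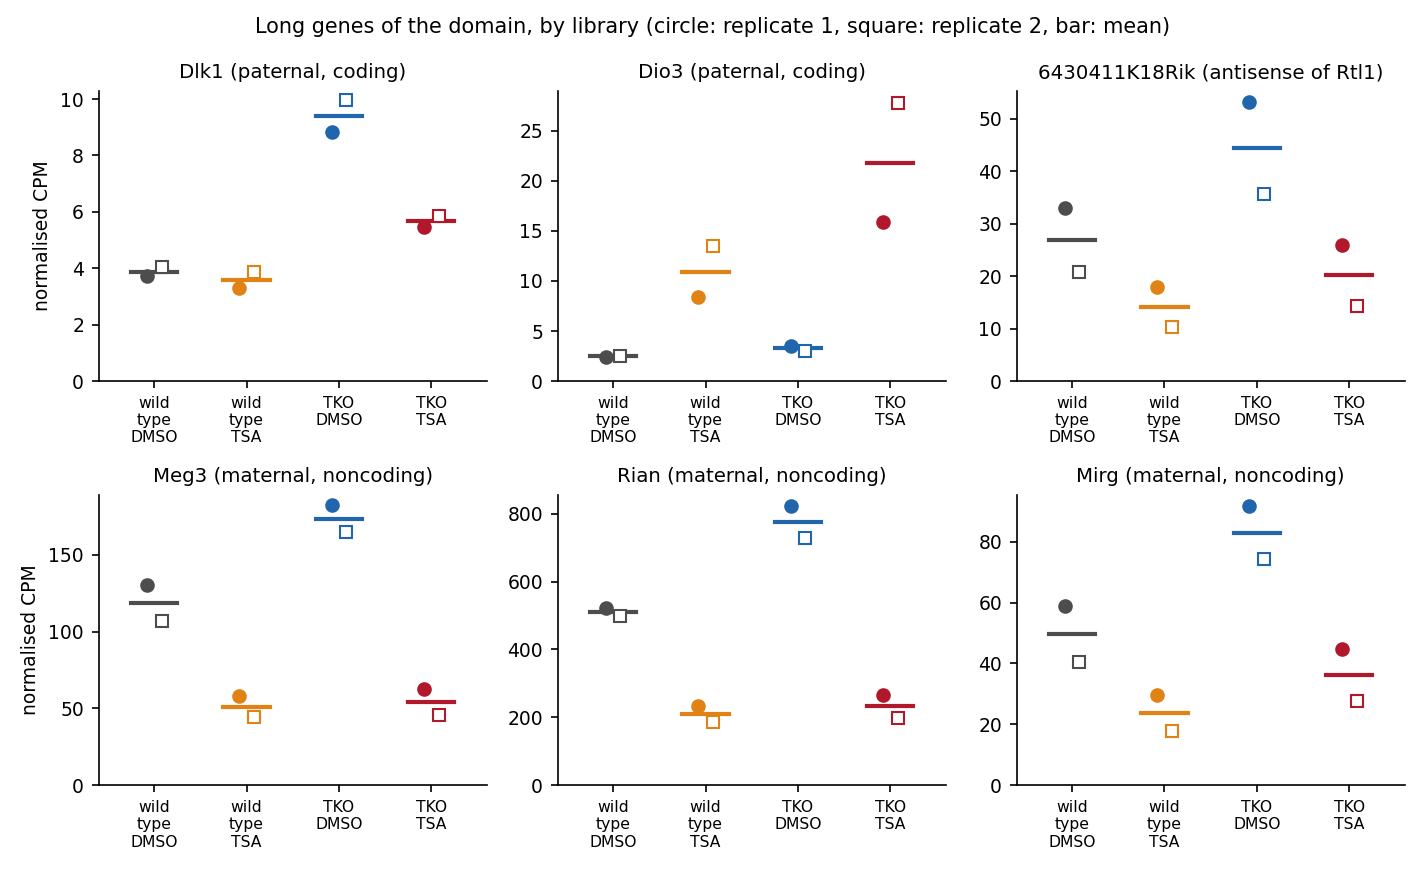
Normalised CPM (y axes, from 0, own scale for each gene) of 6 long genes of the domain in the 4 groups of 2 libraries; circles are replicate 1, squares replicate 2 and bars the group mean. Meg3, Rian and Mirg are lowest in the TSA groups and highest in TKO DMSO, Dio3 is highest in the TSA groups, and Dlk1 is highest in TKO DMSO, at 8.83 and 9.97.

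The snoRNA genes lie in the introns of Rian and encode guides of the C/D box type. They are annotated at 30 to 72 bases, and AF357359, at 30, is shorter than a 51-base read. Their counts may come from longer RNA that runs through them and are not levels of mature snoRNAs. All 7 snoRNA genes were tested, and 6 fell with TSA in wild type and all 7 in TKO, where 25.9% and 27.9% of all tested genes fell. In wild type they were AF357425, AF357426, DQ267100, AF357359, DQ267101 and AF357355, with log2 fold changes of -0.98, -1.14, -1.26, -1.12, -1.78 and -0.80. In TKO the values of these genes were -1.94, -1.68, -1.98, -1.40, -1.41 and -1.18, and DQ267102, at -0.46 and not called in wild type, fell by 1.05. The snoRNA gene with the most counts, AF357359, was at 16.6 and 21.8 normalised CPM in wild type with DMSO, 9.77 and 7.75 in wild type with TSA, 26.7 and 24.4 in TKO with DMSO and 11.0 and 8.35 in TKO with TSA. Every TSA library of this gene was below every DMSO library. Its calls held in all 8 fits that leave out 1 library in both genotypes (highest edgeR adjusted p of 0.00922 and 0.00199), as did that of DQ267101 in wild type. The calls for AF357425, AF357426, DQ267100 and AF357355 held in all 8 fits in TKO but not in wild type, where the highest adjusted p was 0.219, 0.307, 0.0668 and 0.173. In TKO the calls for DQ267101 and DQ267102 were lost without DMSO library 1 or TSA library 2, with a highest adjusted p of 0.0715 and 0.134. Summed over the 7 genes, the level was 38.3 and 44.5 in wild type with DMSO, 21.8 and 18.2 in wild type with TSA, 70.8 and 56.8 in TKO with DMSO and 27.5 and 18.6 in TKO with TSA.

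Counts at the microRNA genes moved in the same direction as their long neighbours. Summed over all 57 genes, tested or not, the level was 81.2 and 61.6 normalised CPM in wild type with DMSO, 39.8 and 22.5 in wild type with TSA, 136 and 104 in TKO with DMSO and 56.6 and 31.3 in TKO with TSA. Within each genotype both TSA libraries were below both DMSO libraries. Of the 35 microRNA genes tested, 16 fell with TSA in wild type and 26 in TKO by edgeR's adjusted p, and none rose; of all tested genes 25.9% and 27.9% fell.

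The 13 microRNA genes that fell in both genotypes are spread over the whole stretch. In wild type and TKO in turn, the log2 fold changes with TSA were -1.39 and -1.36 for Mir3070b, -1.91 and -1.50 for Mir431, -1.16 and -1.51 for Mir434, -1.06 and -1.84 for Mir432, and -1.59 and -2.18 for Mir1188. They were -1.43 and -1.12 for Mir376c, -1.33 and -1.29 for Mir382, -1.44 and -1.75 for Mir134, -1.48 and -1.51 for Mir453, and -1.02 and -1.55 for Mir496. For Mir377 they were -1.60 and -1.54, for Mir541 -1.14 and -1.68, and for Mir409 -2.12 and -2.11. The pair that shares the seed GGUUGCC, Mir453 and Mir496, is in this group. Only Mir3070b, Mir453 and Mir409 kept the wild type call in all 8 fits that leave out 1 library (highest edgeR adjusted p of 0.0389, 0.0425 and 0.0464), and they kept it in TKO too. The other 10 lost the wild type call in at least 1 of these fits.

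Of the 3 genes that kept both calls, Mir3070b was at 6.71 and 6.40 normalised CPM in wild type with DMSO, 2.81 and 2.17 in wild type with TSA, 12.8 and 9.61 in TKO with DMSO and 6.02 and 2.76 in TKO with TSA. Mir409 was at 1.43 and 1.14, then 0.305 and 0.272, then 1.92 and 1.53, then 0.609 and 0.188 in the same order of groups, so its TSA levels approached that of 3 counts. Mir134, a microRNA studied for its role in neuronal dendrites, was at 4.07 and 3.08, then 1.59 and 1.02, then 6.91 and 5.89, then 2.57 and 1.26. For Mir3070b, Mir409 and Mir134 both TSA libraries lay below both DMSO libraries within each genotype.

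A further 13 genes fell in TKO and were not called in wild type. Their log2 fold changes in wild type and TKO in turn were -0.85 and -2.12 for Mir493, -0.72 and -1.46 for Mir3070a, -0.59 and -1.72 for Mir136, -0.64 and -1.58 for Mir299, and -0.72 and -1.28 for Mir329. They were -1.14 and -1.86 for Mir494, -0.53 and -1.63 for Mir679, -0.36 and -2.38 for Mir1193, -1.58 and -1.88 for Mir666, and -1.32 and -1.62 for Mir667. For Mir300 they were -0.94 and -1.22, for Mir487b -1.86 and -1.66, and for Mir485 -0.32 and -1.68. Whether wild type and TKO differ at these genes is the interaction given further on, which called none of them. Of the 13, only Mir1193 kept its TKO call in all 8 fits that leave out 1 library (highest edgeR adjusted p of 0.0101).

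Mir341, Mir1197 and Mir668 fell in wild type, by 1.94, 1.35 and 1.82 on the log2 scale. In TKO they were at -1.09, -0.97 and -0.95 without being called. Each of these wild type calls was lost in at least 1 of the 8 fits that leave out 1 library. The remaining 6 tested microRNA genes passed the test in neither genotype, with log2 values in wild type and TKO of -0.77 and -1.22 for Mir540, -0.13 and -0.90 for Mir665, -1.23 and -0.83 for Mir411, -1.42 and -0.80 for Mir323, -0.77 and -0.87 for Mir758, and -1.23 and -1.22 for Mir654.

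6430411K18Rik, which RefSeq also lists as PEG11as, lies wholly inside the single exon of Rtl1 on the opposite strand and is a maternal antisense transcript. As annotated, it holds all of Mir433 but only 8.6% of the bases of Mir127. It was at 32.9 and 20.8 normalised CPM in wild type with DMSO, 18.0 and 10.4 in wild type with TSA, 53.2 and 35.7 in TKO with DMSO and 25.9 and 14.4 in TKO with TSA. The treatments did not overlap within a genotype, but the higher TKO TSA library was above the lower wild type DMSO library. With TSA the log2 fold change was -0.92 in wild type (edgeR adjusted p = 0.0367) and -1.15 in TKO (edgeR adjusted p = 0.00949). The wild type call was lost without DMSO library 1 or TSA library 2 (highest adjusted p of 0.268), and the TKO call without DMSO library 1 or TSA library 2 (highest adjusted p of 0.0967).

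Of the paternal coding genes, Dio3 rose with TSA in both genotypes and Dlk1 fell in TKO. Dio3, the deiodinase that inactivates thyroid hormone, was at 2.43 and 2.51 normalised CPM in wild type cells with DMSO and at 8.37 and 13.5 with TSA. In TKO it was at 3.49 and 3.06 with DMSO and at 15.9 and 27.7 with TSA. All 4 TSA libraries were above all 4 DMSO libraries. The log2 fold change with TSA was 2.14 ± 0.34 in wild type (edgeR adjusted p = 0.000426) and 2.74 ± 0.31 in TKO (edgeR adjusted p = 3.48e-05), and both calls held without any 1 of the 8 libraries.

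Dlk1, a membrane protein related to the Notch ligands, was at 3.71 and 4.05 normalised CPM in wild type cells with DMSO and at 3.30 and 3.87 with TSA, which overlap. In TKO it was at 8.83 and 9.97 with DMSO and at 5.48 and 5.84 with TSA, which do not. With TSA the log2 fold change was -0.12 ± 0.23 in wild type (edgeR adjusted p = 0.69), with the sign reversed under 2 other scalings, and -0.73 ± 0.20 in TKO (edgeR adjusted p = 0.00869). The TKO call was lost without TKO DMSO library 2 (log2 fold change -0.65, adjusted p = 0.0582).

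Rtl1, a retrotransposon-derived gene needed in the placenta, was at or near the limit of detection, with 2 and 1 counts in wild type with DMSO, 1 and 8 in wild type with TSA, 3 and 2 in TKO with DMSO and 3 and 1 in TKO with TSA. No difference was detectable at this depth, and 6430411K18Rik, which shares its position, had 153 to 778 counts in the same libraries. Dio3os, the transcript divergent from Dio3, had 2 and 2, then 2 and 4, then 1 and 6, then 11 and 8 counts in the same order of groups and was not tested.

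Over the 48 tested members, edgeR called 1 higher and 26 lower with TSA in wild type, and 1 higher and 38 lower with TSA in TKO. Over all tested genes, 27% were called higher and 25.9% lower in wild type, and 30.8% higher and 27.9% lower in TKO. The member that rose is Dio3 in both cases. The median log2 fold change of the 46 tested noncoding members on the plus strand was -1.15 in wild type and -1.51 in TKO, against 0.01 and 0.04 over all genes, and all 46 had values below 0 in both. Of the 46, 1 turned positive in wild type with total counts or the upper quartile as the scaling, which raise the median of all genes to 0.22 and 0.16. More genes were above 0 there without DMSO library 1 (4 of the 52 then tested) and without TSA library 2 (2 of 53). In wild type fewer members were called without DMSO library 1 or TSA library 2, and fewer of all genes were called too. The median of the tested noncoding members on the plus strand was then -0.88 and -0.92. DESeq2 called 16 members in wild type, against 45% of all genes. In TKO fewer members and fewer of all genes were called without DMSO library 1 or TSA library 2, with medians of -1.33 and -1.17. Of the calls, 8 in wild type and 19 in TKO were kept in all 8 fits that leave out 1 library.

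**Figure D2:**
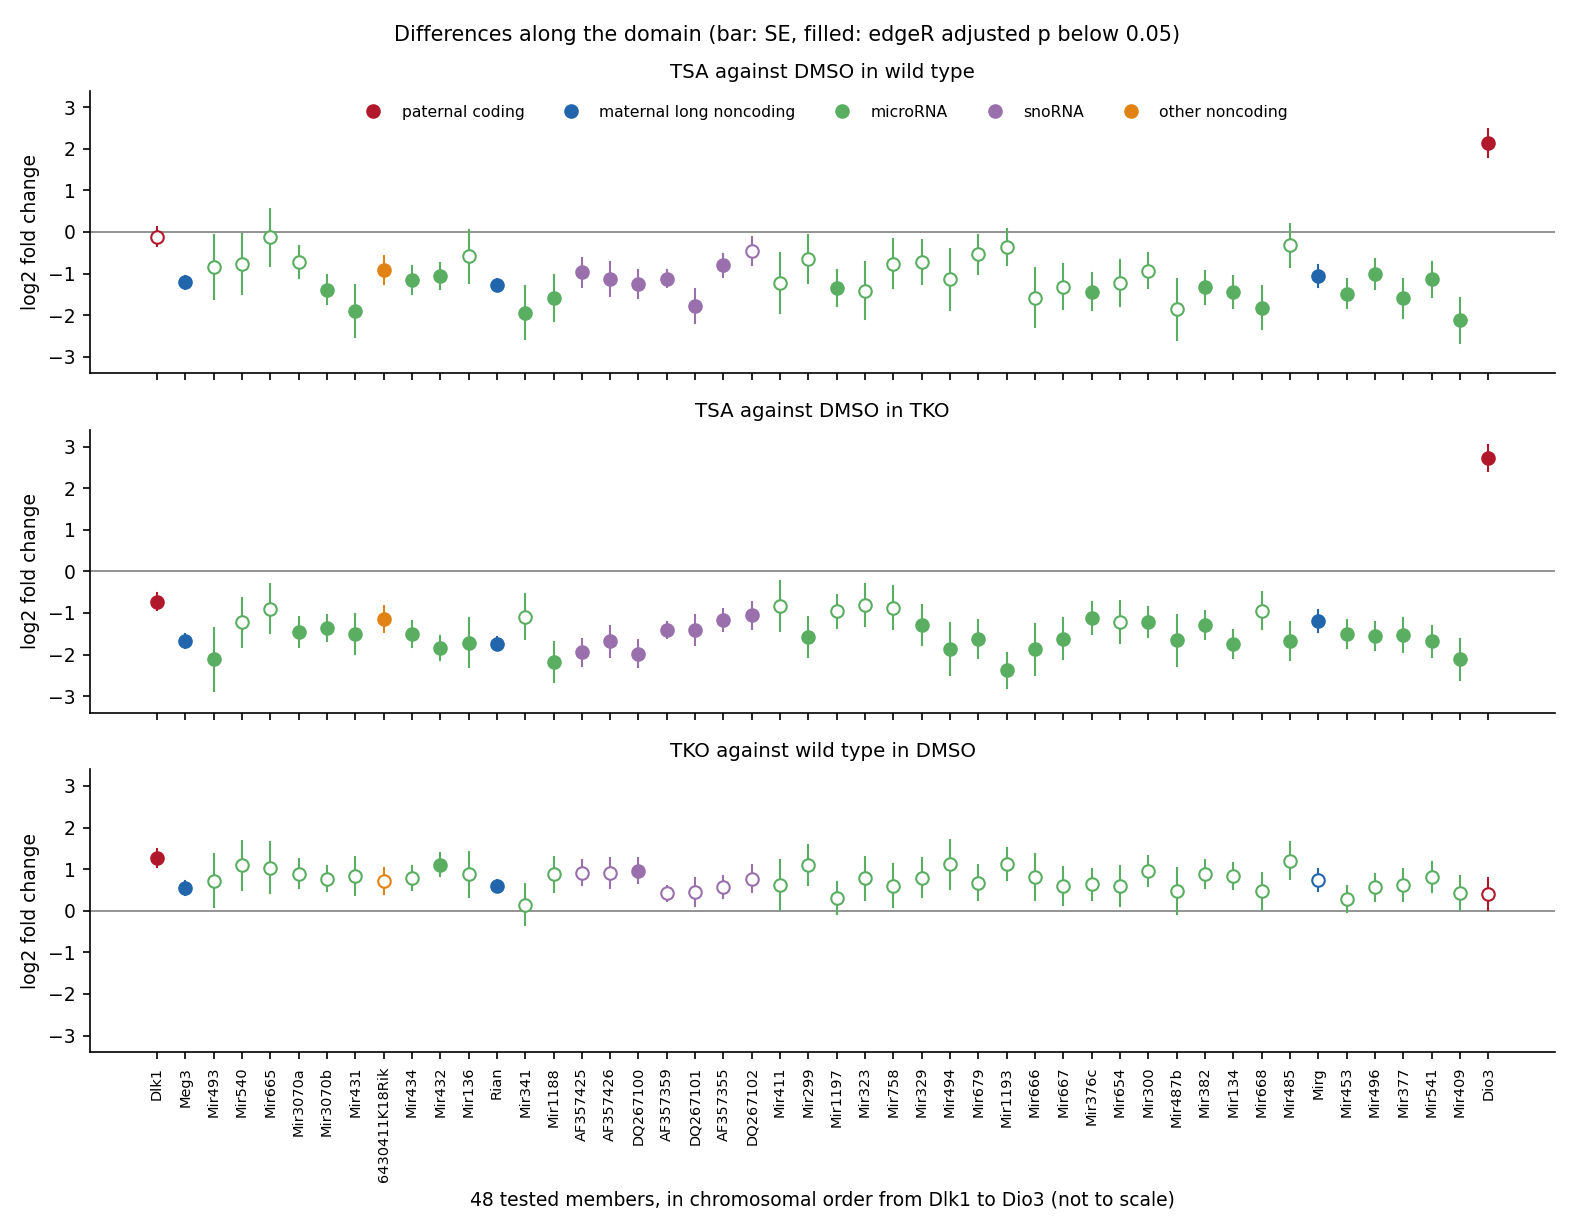
Log2 fold change (y axis) with its SE (bars) of the 48 tested members in chromosomal order (x axis, not to scale) for TSA in wild type, TSA in TKO and TKO in DMSO; filled points passed edgeR's adjusted p of 0.05 and colours mark the class of gene. The noncoding members lie below 0 with TSA and above 0 in TKO, while Dio3 stands at 2.14 and 2.74 with TSA.

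In DMSO, members were called higher in TKO about as often as all genes were, and none was called lower. Among the 48 tested members edgeR called 5 higher and 0 lower in TKO DMSO against wild type DMSO, against 9.63% of all tested genes called higher and 10.7% lower (20.4% in all). DESeq2 also called 5 members higher and 0 lower, against 1299 higher and 1451 lower of 15822 genes (17.4% in all). At an unadjusted p below 0.05 edgeR's counts of members were 22 higher and 0 lower. The share of all genes at that unadjusted threshold is not given here, so these counts have no background. The 5 called by edgeR at its adjusted p are Dlk1, Meg3, Rian, Mir432 and the snoRNA gene DQ267100. Their share of 10.4% of the tested members is near the 9.63% of all genes called higher.

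Dlk1 had the largest value of the tested members, with a log2 fold change of 1.27 ± 0.21 in TKO (edgeR adjusted p = 0.00186). Both TKO DMSO libraries were more than 2 times the level of either wild type DMSO library, and the call held in each of the 8 fits that leave out 1 library. Meg3 was at a log2 fold change of 0.55 (edgeR adjusted p = 0.0343) and Rian at 0.60 (edgeR adjusted p = 0.0127), and for both genes both TKO libraries were above both wild type libraries. The call for Meg3 was lost without any 1 of the 4 DMSO libraries (adjusted p up to 0.179), and that for Rian without wild type DMSO library 1 or TKO DMSO library 1 (adjusted p up to 0.098). Mirg, at 0.74, was not called (edgeR adjusted p = 0.0661).

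Mir432 was at 4.07 and 3.16 normalised CPM in wild type DMSO and at 8.69 and 6.99 in TKO DMSO, with a log2 fold change of 1.11 (edgeR adjusted p = 0.0163). DQ267100 was at 6.07 and 5.11 and at 12.2 and 9.61, with a log2 fold change of 0.96 (edgeR adjusted p = 0.0438). Neither gene's groups overlapped. Both calls were lost when 1 library was left out, that for Mir432 without wild type DMSO library 2 or TKO DMSO library 1 (adjusted p up to 0.116) and that for DQ267100 without any 1 of the 4 DMSO libraries (adjusted p up to 0.227). All 46 tested noncoding members on the plus strand had values above 0, with a median log2 fold change of 0.77 against -0.01 over all genes. With 1 library left out, 49 to 53 such genes were tested, of which 1 to 3 were below 0 in each fit. Summed over all members of a class, both TKO DMSO libraries were above both wild type DMSO libraries for the long noncoding, snoRNA, microRNA and paternal coding genes alike. Dio3 was not called, with a log2 fold change of 0.41 (edgeR adjusted p = 0.497), with both TKO libraries above both wild type libraries.

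**Figure D3:**
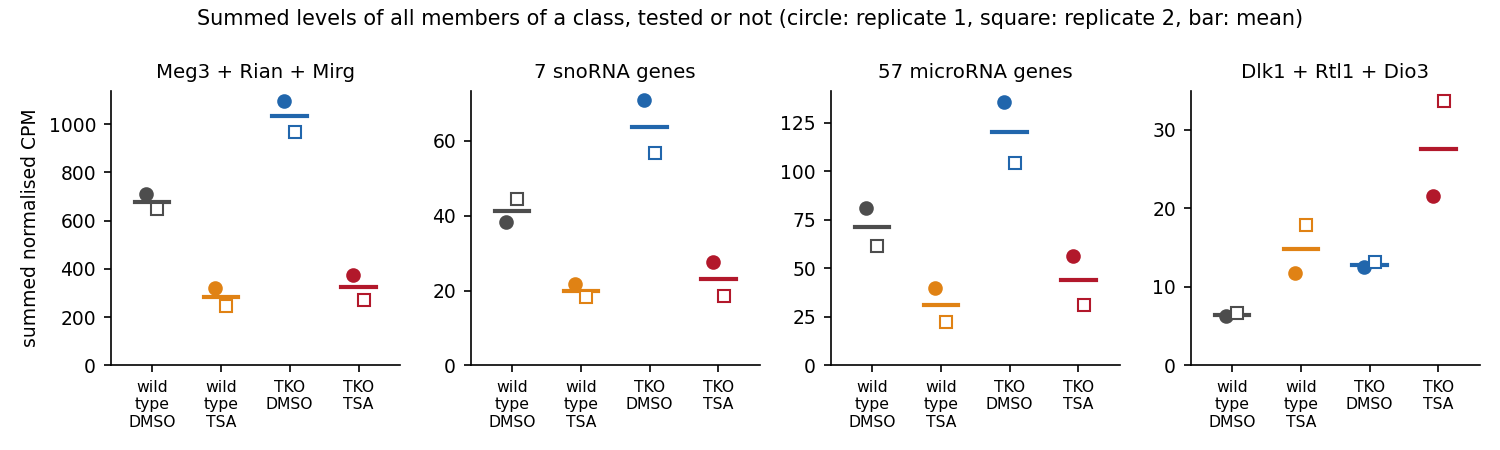
Summed normalised CPM (y axes, from 0, own scale for each class) of all members of 4 classes, tested or not, in the 4 groups of 2 libraries; circles are replicate 1, squares replicate 2 and bars the mean. The noncoding sums are lower with TSA, while the paternal coding sum is 6.28 and 6.65 with DMSO and 11.7 and 17.9 with TSA in wild type, and 12.5 and 13.2 and then 21.6 and 33.7 in TKO.

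In the TSA groups, edgeR called Dio3 higher in TKO TSA than in wild type TSA and no other of the 48 tested members, against 10% of all tested genes called higher and 8.38% lower (18.4% in all). The log2 fold change of Dio3 was 1.00 ± 0.27 (edgeR adjusted p = 0.0265). Both TKO TSA libraries, at 15.9 and 27.7, were above both wild type TSA libraries, at 8.37 and 13.5. The call was lost without wild type TSA library 1 (log2 fold change 0.69, adjusted p = 0.211) and without TKO TSA library 2 (0.54, adjusted p = 0.263). Dlk1 was at 0.66 and just missed the threshold (edgeR adjusted p = 0.0543), with both TKO TSA libraries above both wild type TSA libraries. DESeq2 called 1 member higher and 0 lower, against 14.9% of all genes called in either direction. At an unadjusted p below 0.05, for which no share of all genes is given here, 6 members were higher and 0 lower by edgeR.

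Cells with both changes, TKO with TSA, were set against wild type DMSO. Of the 48 tested members 2 were higher and 11 lower, against 31.7% of all tested genes higher and 30.2% lower (61.9% in all). Dio3 rose with a log2 fold change of 3.14 ± 0.33 (edgeR adjusted p = 1.57e-05). Meg3 fell by 1.12 (edgeR adjusted p = 0.000165) and Rian by 1.13 (edgeR adjusted p = 6.37e-05). AF357359 fell by 0.98 (edgeR adjusted p = 0.00126). These 4 calls held in each of the 8 fits that leave out 1 library, and none of the other 9 did. They are Dlk1, higher at 0.54 (edgeR adjusted p = 0.0465, and 0.0597 to 0.162 with a library left out), and, lower, AF357425, DQ267100, DQ267101, Mir1193, Mir134, Mir453, Mir496 and Mir409. Fewer members were called without TKO TSA library 2 or wild type DMSO library 1, and more without TKO TSA library 1. Fewer of all tested genes were called in each of these fits. The median log2 fold change of the tested noncoding members on the plus strand was then -0.47, -0.57 and -1.15 in turn.

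The interaction asks whether TSA acted differently in TKO than in wild type. EdgeR called 0 of the 48 tested members, against 1.35% of all tested genes (0.879% higher and 0.468% lower). DESeq2 also called 0, against 2.53% of all genes. At an unadjusted p below 0.05, for which no share of all genes is given here, edgeR found 0 higher and 2 lower. These are Mir1193, with a difference of log2 fold changes of -2.02 ± 0.62 (adjusted p = 0.152), and Rian, at -0.45 ± 0.20 (adjusted p = 0.339). They were chosen after their values were seen. The difference was -0.61 ± 0.30 for Dlk1, -0.46 ± 0.23 for Meg3, -0.14 ± 0.38 for Mirg and 0.59 ± 0.47 for Dio3, so effects of these sizes were not separated from the spread between libraries. A missed threshold does not show that TSA acted alike in the genotypes.

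The balance of the domain was described by the log2 ratio of Meg3, Rian and Mirg summed to Dlk1, Rtl1 and Dio3 summed, with no test. It was 6.82 and 6.60 in wild type with DMSO, 4.78 and 3.78 in wild type with TSA, 6.45 and 6.20 in TKO with DMSO and 4.12 and 3.02 in TKO with TSA. On the linear scale the noncoding sum was on average 105 times the coding sum in wild type with DMSO, 20.6 times in wild type with TSA, 80.5 times in TKO with DMSO and 12.7 times in TKO with TSA. The 4 TSA libraries all lay below the 4 DMSO libraries. Against Dlk1 alone the log2 ratio was 7.58 and 7.32, then 6.61 and 6.00, then 6.96 and 6.60, then 6.10 and 5.54 in the same order of groups, so DMSO and TSA libraries did not overlap within a genotype, while those of wild type with TSA and TKO with DMSO did. Against Dio3 alone, an alternative chosen after seeing the data, it was 8.19 and 8.01, then 5.26 and 4.19, then 8.30 and 8.30, then 4.56 and 3.29. The difference of TKO from wild type in DMSO was -0.67 against Dlk1 and 0.20 against Dio3.

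**Figure D4:**
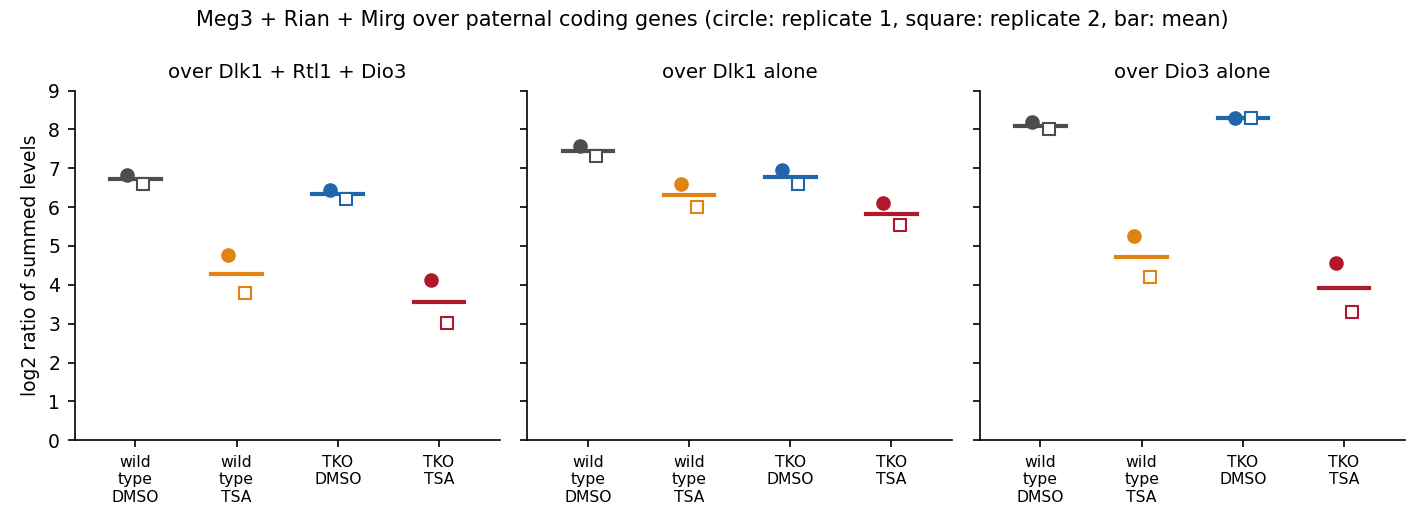
Log2 ratio (y axis, shared) of the summed levels of Meg3, Rian and Mirg to the summed paternal coding genes, to Dlk1 alone and to Dio3 alone, in the 4 groups of 2 libraries; circles are replicate 1, squares replicate 2 and bars the mean. The drop with TSA is widest against Dio3 and narrowest against Dlk1.

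The domain's neighbours were read for comparison. The 25 genes of chromosome 12 that start within 1 Mb of the domain on either side summed to 2288 and 2291 normalised CPM in wild type with DMSO, 2133 and 2063 in wild type with TSA, 2280 and 2394 in TKO with DMSO and 2203 and 2217 in TKO with TSA. Of the 22 tested, edgeR called 6 higher and 3 lower with TSA in wild type, 6 higher and 4 lower with TSA in TKO, and 2 higher and 0 lower in TKO DMSO, against 52.8%, 58.7% and 20.4% of all genes called in either direction. Their median log2 fold changes in these comparisons were 0.11, 0.10 and 0.30. The median of the tested noncoding members was far from these values in the TSA comparisons, at -1.15 and -1.51; the difference between members and neighbours was not tested. Degs2, with a log2 fold change of 4.13 in wild type and 3.48 in TKO, was named after its value was seen as the neighbour that rose the most with TSA. Stk30 and Tecpr2 were the neighbours higher in TKO DMSO, at 0.70 and 0.41.

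The TSA difference was seen in each stretch of the domain. The 13 small RNA genes between Meg3 and Rian, which include those antisense to Rtl1, summed to 22.8 and 18.7 normalised CPM in wild type cells with DMSO and to 11.7 and 7.95 with TSA. The 10 inside Rian summed to 40.6 and 46.6, and to 22.8 and 18.8 with TSA. The 38 beyond Rian summed to 56.0 and 40.8, and to 27.1 and 13.9 with TSA. In TKO the sums went from 43.7 and 32.9 to 16.7 and 10.0, from 74.4 and 60.2 to 28.6 and 19.3, and from 88.6 and 68.3 to 38.8 and 20.6. In all 3 stretches the DMSO and TSA libraries of a genotype did not overlap. The stretches were drawn after the data were seen.

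Genes that act on the domain were read from a list of 15 regulators of imprints, all of them tested. With TSA 2 rose and 9 fell in wild type, and 2 rose and 8 fell in TKO, against 52.8% and 58.7% of all genes called in either direction. Setdb1, named after its value was seen, is the weakest of the 9, at -0.22 (edgeR adjusted p = 0.0488), and was called in 0 of the 8 fits that leave out 1 library. Tet1 and Tet2, the dioxygenases that oxidise methylated cytosine, fell by 2.18 and 1.60 on the log2 scale in wild type and by 2.76 and 2.19 in TKO. Zfp57, the zinc finger protein that binds methylated imprinting control regions, fell by 1.05 and 1.52. Its partner Trim28 fell by 0.75 and 0.80. Dppa3, which protects methylation in the early embryo, rose by 1.50 and 2.04. The edgeR calls for Tet1, Tet2, Zfp57, Trim28 and Dppa3 held in all 8 fits that leave out 1 library in both genotypes. TKO in DMSO called 0 of the 15 by edgeR's adjusted p, against 20.4% of all tested genes called in either direction. Tet2 was the nearest of those named, at 0.45 (edgeR adjusted p = 0.0507).

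Of 15 Notch pathway genes, listed because Dlk1 is related to Notch ligands, 14 were tested. With TSA 2 rose and 6 fell in wild type, 3 rose and 7 fell in TKO, and in TKO DMSO 5 were higher and 2 lower than in wild type. Over all genes 52.8%, 58.7% and 20.4% were called in these comparisons, so the TSA counts in wild type are near the background. The pathway genes moved in both directions. Jag1, a Notch ligand, fell with TSA by 1.43 in wild type and 1.00 in TKO, the ligand Dll3 by 0.88 and 1.12, and the receptor Notch3 by 1.05 and 0.46. Hes1, a target gene of Notch, fell by 0.84 and 1.09, while another target, Hey2, rose by 0.88 and 1.72. Hey1, also a target, rose by 0.74 and 0.87, and the receptor Notch2 rose in TKO by 0.85; both were named after their values were seen. The wild type calls for Hey1, Hey2 and Dll3 were each lost without at least 1 library (adjusted p up to 0.0976, 0.122 and 0.0661), as were the TKO calls for Hey1 and Notch3 (up to 0.0549 and 0.122). Notch4, a receptor, was at 6.07 and 7.78 normalised CPM in wild type with DMSO, 2.38 and 2.65 in wild type with TSA, 14.9 and 21.0 in TKO with DMSO and 1.62 and 1.70 in TKO with TSA. It fell with TSA, with log2 fold changes of -1.46 in wild type (edgeR adjusted p = 0.000809) and -3.42 in TKO (edgeR adjusted p = 3.39e-06). Notch1, another receptor, was higher in TKO DMSO, at 0.68 (edgeR adjusted p = 0.00269), as were Notch4, at 1.38, and the ligand Dll1, at 0.91, whose call was lost without TKO DMSO library 1 (adjusted p = 0.0684). The ligand Jag2 was higher too, at 0.52, while Notch3 and Notch2 were lower, at -0.52 and -0.37; these 3 calls were lost without single libraries (adjusted p up to 0.101, 0.201 and 0.159).

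Of 6 genes that handle or sense thyroid hormone, listed because Dio3 inactivates it, 3 were tested. The deiodinases Dio1 and Dio2 and the transporter Slco1c1 had at most 2, 5 and 3 counts in any library. Slc16a10, a transporter of thyroid hormone, rose with TSA by 1.89 in wild type and 3.04 in TKO. Thra, a nuclear receptor of the hormone, fell by 1.01 and 1.05, and was lower in TKO DMSO, at -0.77 (edgeR adjusted p = 0.0148), a call lost without wild type DMSO library 2 or TKO DMSO library 1 (adjusted p up to 0.117). Both Slc16a10 and Thra kept their TSA calls in all 8 fits that leave out 1 library. Thrb, the other nuclear receptor, was at 0.143 and 0.162 normalised CPM in wild type DMSO, below the level of 3 counts (0.214 and 0.243). The sizes of its differences from that group are therefore uncertain. Thrb was higher in TKO DMSO, at 0.958 and 1.24, by 2.78 (edgeR adjusted p = 0.0125). That call was lost without wild type DMSO library 1 or TKO DMSO library 2. With TSA it rose in wild type by 2.09 (edgeR adjusted p = 0.0274), a call lost without any 1 of the 4 wild type libraries (adjusted p up to 0.117), and was at 0.53 in TKO, not called.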

How the data were processed

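Total RNA depleted of ribosomal RNA was sequenced from 4 groups of 2 libraries, per the labels' protocols. The authors deposited 1 table of raw read counts per gene with exon positions, strand and exon length. The submitters' processing notes name TopHat2 2.0.13, featureCounts 1.4.5-p1, edgeR 3.22.3 and mm10, with no role for each; the strand setting of the counting is not given in the sources used here. The tests here used edgeR 4.0.16 under R 4.3.3: filterByExpr, TMM scaling, 1 quasi-likelihood model with a mean per group over all 8 libraries (4 residual degrees of freedom, a common biological coefficient of variation of 10.3%), 6 contrasts, and Benjamini-Hochberg adjustment over 15822 genes at 0.05. SE is the size of the log2 fold change over the square root of F. Normalised CPM divide counts by the TMM-scaled total, per 1e6. No pair of replicates agreed within sampling noise (chi-square per degree of freedom 5.28 to 12.2). The test was checked on simulated data. Members and gene lists were chosen with earlier results of these data known. All tested members and the 25 others were named, with up to 5 called genes of a list in a comparison, by size of change, and a few more where the text says so. The DQ267 genes were classed as snoRNA by their RefSeq biotype, after the names were seen. Gene sequences and classes come from RefSeq, in which all 73 members matched. DESeq2 1.42.0, other scalings, filters, a replicate block and leaving out each library were tried. A further thyroid hormone gene is not reported here. ChIP-seq and ATAC-seq samples were not analysed here.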

Additional observations from a re-analysis of the deposited data

Results flagged for a closer look

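No member of the domain met a rule for a closer look. Among the genes read beside it, the effect of TSA differed between TKO and wild type for Notch4, with an interaction of -1.97 on the log2 scale (edgeR adjusted p = 0.0348), a call kept in only 2 of the 8 fits that leave out 1 library (adjusted p up to 0.156).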

How the results depend on the processing

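The numbers of members called depended on single libraries. The share of all tested genes called also changed with the library left out, in every comparison. The ranges that follow therefore do not by themselves describe the members. Whether members depended on single libraries more than other genes did was not tested. With each library left out in turn, the calls ran from 9 to 27 with TSA in wild type and 22 to 46 with TSA in TKO; TKO against wild type gave 1 to 8 in DMSO and 1 to 2 in TSA; both changes together gave 4 to 23. The replicate block called 17 members for the genotype in DMSO, 5 in TSA and 21 for both changes. Over all tested genes it called 26.7%, 25.9% and 65.8% in these comparisons, against 20.4%, 18.4% and 61.9% without the block. Among members it kept all 5, 1 and 13 of the calls made without it. Deviations of same-numbered libraries correlated at 0.0586 to 0.366, all 6 above 0, but with 2 numbers only and no label saying what a number shares, pairing is not established. DESeq2 called 16 members with TSA in wild type (45% of all genes) and 6 for TKO with TSA against wild type DMSO (55.1% of all genes). Total counts as the scaling called 8 in the latter comparison (60.7% of all genes). TKO in DMSO gave 10 without a filter (16.8% of all genes) and 11 with its own 2 groups only (19.7%). The difference in the log2 ratio moved with the genes summed. Against Dlk1 alone it was -1.15 with TSA in wild type, -0.96 with TSA in TKO, -0.67 for the genotype in DMSO, -1.63 for both changes and 0.19, reversed, for the interaction. Against Dio3 alone, chosen after seeing the data, it was -3.37, -4.37, 0.2 (reversed), -4.17 and -1. Per kb it was -3.35 with TSA in TKO and -0.17 for TKO in DMSO. With each library left out, the log2 ratio differences ran from -2.93 to -1.94 with TSA in wild type, -3.31 to -2.21 with TSA in TKO, -0.51 to -0.26 for the genotype in DMSO, -1.26 to -0.16 in TSA, -3.69 to -2.59 for both changes, and -0.88 to 0.22 for the interaction, reversed without wild type TSA library 1 (0.17) or TKO TSA library 2 (0.22). Reversed single values were not called: Dlk1 with TSA in wild type (0.09 with total counts, 0.03 with the upper quartile), and, with a library left out, Meg3 for TKO in TSA (-0.15 to 0.3, reversed without wild type TSA library 2 or TKO TSA library 1), Rian there (-0.07 to 0.35, reversed or 0 without the same), and the interaction of Mirg (-0.53 to 0.28, reversed without wild type DMSO library 2, wild type TSA library 1, TKO DMSO library 1 or TKO TSA library 2). The causes were not tested. Depth limits Rtl1, Dio3os and the untested microRNA genes.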
